A study of Mus musculus with 20 samples.

Results

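The genes described here carry fatty acids from blood lipoproteins into the fat cell and build them into triglyceride. They were followed in epididymal visceral adipose tissue (VAT), the fat depot beside the epididymis, of male C57bl/6J mice. The set held 10 genes, found by name among the non-control spots of the arrays, out of 25618 gene names tested. All 10 were well above background on all 20 arrays. Ref mice (n = 6) came from the control lineage, bred on a diet with sunflower oil rich in oleic acid, and ate a low-fat diet. HFoleic mice (n = 6) came from the same lineage and HFepa mice (n = 8) from a lineage given fish oil rich in eicosapentaenoic acid (EPA), an omega 3 fatty acid. Both of these groups ate an obesogenic diet rich in fat and sucrose. All mice were of the third generation of their lineage. Diet was therefore the difference between HFoleic and Ref, and lineage that between HFepa and HFoleic, while HFepa and Ref differed in both. Whole tissue of 1 mouse was hybridised per array, so fewer cells of a type and less RNA per cell cannot be told apart in these data.

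Lipoprotein lipase (Lpl) frees fatty acids from circulating lipoproteins while it is held at the capillary wall by Gpihbp1, a protein of endothelial cells. The scavenger receptor Cd36 and the transport protein Slc27a1 help the fatty acids across the membrane, Fabp4 binds them inside the adipocyte, and Acsl1 activates them by joining them to coenzyme A. Acylated glycerol phosphate then receives a further acyl chain from Agpat2, loses its phosphate through lipin 1 (Lpin1), and receives the last acyl chain from Dgat1 or Dgat2, which are unrelated enzymes for the same reaction. Inherited loss of AGPAT2 causes a lipodystrophy in humans.

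The array reads each gene through probes of 60 bases. The first 30 bases of the probes behind 3 of the genes that changed, and of a dim Acsl1 probe that went its own way, are shown because these are the letters the measurements rest on. All positions are on the mm9 build.
Agpat2, chr2:26448610-26448669: gacggcctcagtcacaaatcactgctgtgt
Slc27a1, chr8:74110256-74110315: ggtacccacctccctttcctattgtgcctt
Gpihbp1, chr15:75428484-75428543: gctggaccaaatttggtaatatagccctcc
Acsl1, dim probe, chr8:47601866-47601925: tgctgcaaatagtggaggttatgtttgttc

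On the obesogenic diet, mice of the control lineage had more mRNA of the acyltransferases Dgat2 and Agpat2 and less of the uptake protein Slc27a1 and of the lipase anchor Gpihbp1. In HFoleic vs. Ref, 2 of the 10 genes were thus higher, 2 were lower and 6 did not pass an adjusted p of 0.05. Of all genes tested, 31.8% passed in this comparison, 15.2% higher and 16.7% lower, so the count of 4 in 10 lies near the background. The median log2 fold change of the 10 genes was -0.07, against -0.04 over all genes. In HFepa vs. Ref none of the 10 passed, where 2.46% of all genes did, and limma gave 1 of them, Dgat2, at an unadjusted p below 0.05 (21.6% of all genes). In HFepa vs. HFoleic none passed, where 0% of genes did, and 4 had an unadjusted p below 0.05 (20.8% of all genes). The comparisons of HFoleic and of HFepa with Ref share the same Ref arrays.

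**Figure D1:**
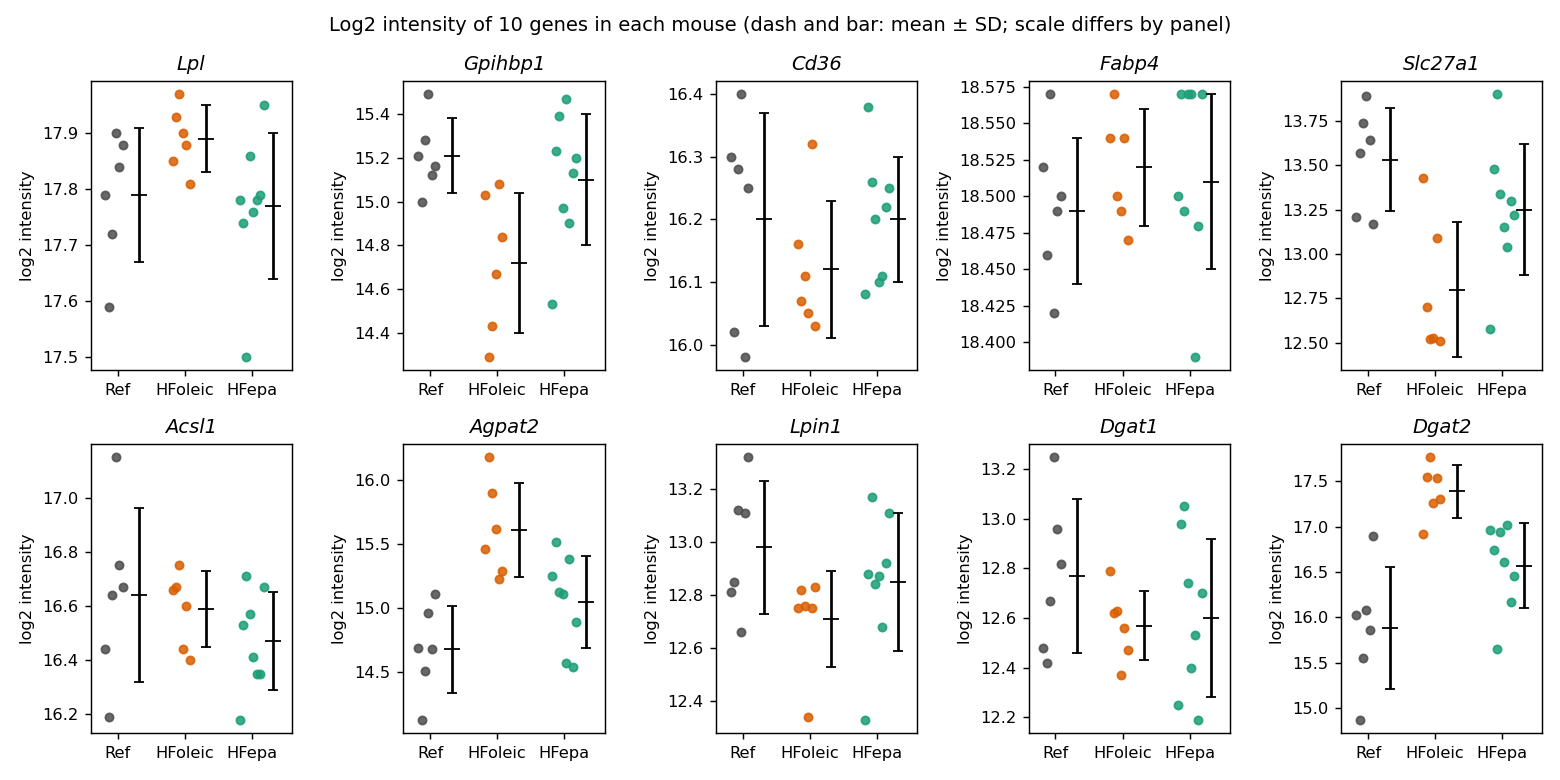
Quantile-normalized log2 intensity of the 10 genes in each mouse, 1 point per mouse, with the mean ± SD of each group as a dash and bar. The vertical scale differs by panel and does not start at 0. All 6 HFoleic mice lie above all 6 Ref mice for Dgat2 and Agpat2, and the groups overlap for the other genes.

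Dgat2, an acyltransferase of the last step, had the largest change of the 10 genes in HFoleic vs. Ref. Its log2 intensity was 14.87, 15.55, 15.86, 16.03, 16.08 and 16.90 in the Ref mice, and 16.92, 17.26, 17.31, 17.54, 17.55 and 17.77 in the HFoleic mice. Every HFoleic mouse was above every Ref mouse, although the highest Ref mouse, Ref 7, came within 0.02 of the lowest HFoleic mouse. The HFepa mice ran from 15.65 through a median of 16.68 to 17.02, and 3 of 8 were above all Ref mice. In HFoleic vs. Ref the mean rose by 1.51 ± 0.27 (SE) on the log2 scale, or 2.85-fold, with an adjusted p of 0.000716. It was 0.69 ± 0.25 in HFepa vs. Ref (adjusted p = 0.13). Without Ref 7 this second difference was 0.89 (adjusted p = 0.0354), and without HFepa 3, the lowest HFepa mouse, 0.82 (adjusted p = 0.0436), so the call depended on those mice. In these fits 4.73% and 7.08% of all genes passed in HFepa vs. Ref. HFepa was below HFoleic by a log2 fold change of -0.82 (95% interval -1.35 to -0.30, adjusted p = 0.126).

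Agpat2, which adds the acyl chain that yields phosphatidic acid, moved the same way. The Ref mice had 14.13, 14.51, 14.68, 14.69, 14.96 and 15.11, and the HFoleic mice 15.23, 15.29, 15.46, 15.62, 15.90 and 16.18. These groups did not overlap, as was the case for 14% of all genes, and for 6.92% with HFoleic higher. The HFepa mice lay between, from 14.54 through a median of 15.12 to 15.52, with 4 of 8 above all Ref mice. The log2 fold change was 0.93 ± 0.19 in HFoleic vs. Ref (1.91-fold, adjusted p = 0.00177) and 0.37 ± 0.18 in HFepa vs. Ref (adjusted p = 0.255). In HFepa vs. HFoleic it was -0.56 (95% interval -0.94 to -0.18, adjusted p = 0.131). A dimmer Agpat2 probe rose by 1.03 on the log2 scale in HFoleic vs. Ref (adjusted p = 0.00165).

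Slc27a1, the fatty acid transport protein of the plasma membrane, was lower in HFoleic mice. Ref mice had 13.17, 13.21, 13.57, 13.64, 13.74 and 13.89, and HFoleic mice 12.51, 12.52, 12.53, 12.70, 13.09 and 13.43. In 5 of 6 HFoleic mice the value was below all Ref mice, and HFoleic 1 was within their range. HFepa mice spread from 12.58 to 13.90 with a median of 13.26, across both other groups. The log2 fold change in HFoleic vs. Ref was -0.74 ± 0.19 (1.67-fold lower, adjusted p = 0.007). It was -0.28 ± 0.18 in HFepa vs. Ref (adjusted p = 0.395) and 0.46 in HFepa vs. HFoleic (95% interval 0.08 to 0.83, adjusted p = 0.169).

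Gpihbp1, the endothelial anchor of lipoprotein lipase, was lower by a smaller step. Ref mice had 15.00, 15.12, 15.16, 15.21, 15.28 and 15.49, and HFoleic mice 14.29, 14.43, 14.67, 14.84, 15.03 and 15.08. Of the HFoleic mice, 4 of 6 were below all Ref mice. HFepa mice ran from 14.53 through 15.16 to 15.47. The log2 fold change was -0.49 ± 0.15 in HFoleic vs. Ref (1.4-fold lower, adjusted p = 0.0189), -0.11 ± 0.14 in HFepa vs. Ref (adjusted p = 0.715) and 0.38 in HFepa vs. HFoleic (95% interval 0.09 to 0.67, adjusted p = 0.152). Without HFoleic 4 the first of these was -0.40 (adjusted p = 0.0548), so its call rests on that mouse. Markers of endothelial cells overlapped between groups, with a mean log2 level of 12.22 to 12.60 in Ref and 11.96 to 12.49 in HFoleic mice. In HFoleic vs. Ref 1 of 13 passed as lower (Sox18), and their median log2 fold change was -0.15, against -0.04 over all genes. At an unadjusted p below 0.05 limma gave 3 lower and 0 higher, where 22.9% and 19.3% of all genes were. HFoleic 4 and HFoleic 5, the lowest HFoleic mice for Gpihbp1 (14.29 and 14.43), were also lowest for these markers (11.96 and 11.99). The part of endothelial cells in the Gpihbp1 result was not tested.

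**Figure D2:**
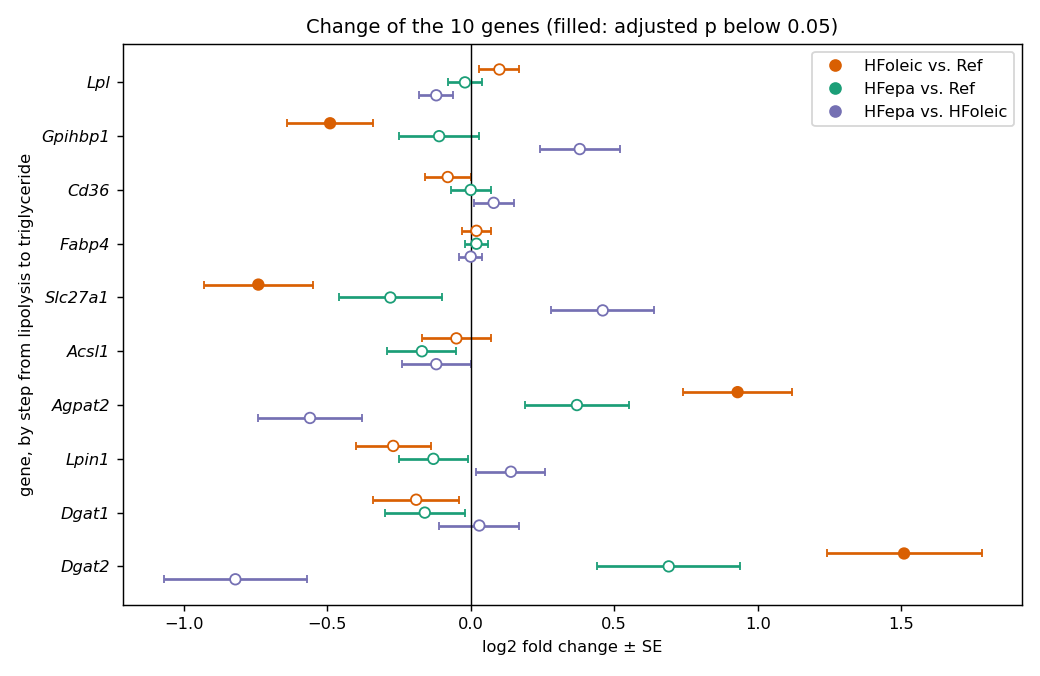
Log2 fold change ± SE of the 10 genes in the 3 comparisons, in the order of the pathway. Filled points have an adjusted p below 0.05: Gpihbp1, Slc27a1, Agpat2 and Dgat2 in HFoleic vs. Ref, and none in the comparisons with HFepa.

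The arrays were run on 3 slides that each held all groups, with 1 HFoleic mouse, HFoleic 4, on slide 2, so each difference from HFoleic on that slide rests on that mouse. On slides 1, 2 and 3, the HFoleic minus Ref difference was 1.72, 1.06 and 1.95 for Dgat2, 1.05, 1.14 and 0.96 for Agpat2, -0.56, -0.83 and -0.88 for Slc27a1, and -0.26, -1.04 and -0.44 for Gpihbp1. With slide as a block, Dgat2 and Agpat2 passed the threshold in HFepa vs. HFoleic, at -0.94 (adjusted p = 0.0368) and -0.67 (adjusted p = 0.029), where 3.17% of all genes passed. The HFepa minus HFoleic difference was -0.49, -0.65 and -1.74 for Dgat2 and -0.55, -0.84 and -0.72 for Agpat2 on these slides. Slc27a1 and Gpihbp1 were at 0.45 (adjusted p = 0.136) and 0.40 (adjusted p = 0.115) under the same block.

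The remaining genes of uptake gave no call. Lpl had medians of 17.81 in Ref, 17.89 in HFoleic and 17.78 in HFepa mice, and HFoleic exceeded Ref by 0.10 ± 0.07 on the log2 scale (adjusted p = 0.267). Its 6 probes differed in sign, from -0.20 to 0.10, and none passed. Cd36 ran from 15.98 to 16.40 in Ref mice, 16.03 to 16.32 in HFoleic mice and 16.08 to 16.38 in HFepa mice. Its log2 fold change in HFoleic vs. Ref was -0.08 (95% interval -0.24 to 0.08).

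Fabp4 was at 18.42 to 18.57 in Ref mice, 18.47 to 18.57 in HFoleic mice and 18.39 to 18.57 in HFepa mice. Its probe ranked between 2 and 7 of all 39390 probes on every array, and Lpl between 30 and 69. Quantile normalization gives probes of the same rank the same value, so little spread can appear at these ranks. The direction of both genes depended on this choice. With the processed signal scaled to the 75th percentile, the HFoleic vs. Ref change was -0.27 for Fabp4 (adjusted p = 0.0215) and -0.14 for Lpl (adjusted p = 0.245), and with median centring -0.22 and -0.08 (adjusted p = 0.061 and 0.525).

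Acsl1, Lpin1 and Dgat1, the enzymes of activation, phosphate removal and the alternative last step, were not called by their brightest probes. The log2 fold change in HFoleic vs. Ref was -0.05 for Acsl1 (95% interval -0.31 to 0.21), -0.27 for Lpin1 (-0.54 to 0.01) and -0.19 for Dgat1 (-0.51 to 0.12). With array weights Lpin1 passed, at -0.29 (adjusted p = 0.0431), in a fit that called 42% of all genes. In HFepa vs. HFoleic these intervals ran from -0.36 to 0.13, -0.12 to 0.40 and -0.27 to 0.33. Dgat1 and Dgat2 thus differed in HFoleic vs. Ref in that Dgat2 passed and Dgat1 did not, and the difference between the genes was not tested. The dim Acsl1 probe printed above, whose HFoleic values ran from 6.80 to 7.77, was lower in HFoleic vs. Ref by a log2 fold change of -0.58 (adjusted p = 0.0368), unlike the other 2 probes of the gene at -0.05 and 0.04. The 4 Lpin1 probes all had negative values, from -0.27 to -0.11, and none passed.

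**Figure D3:**
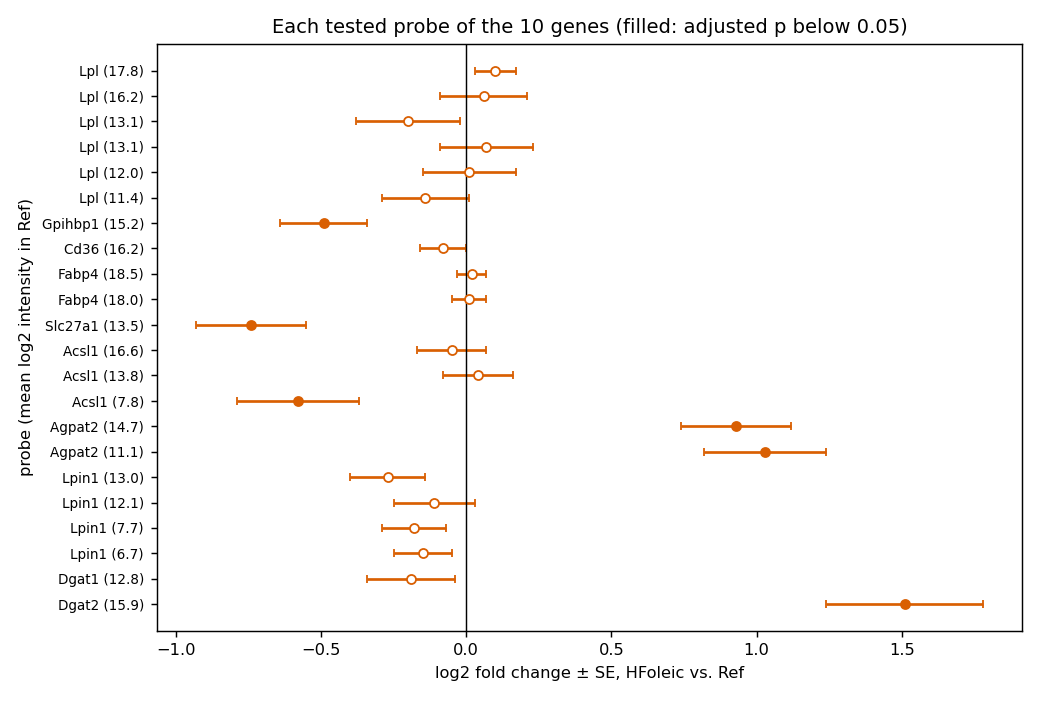
Log2 fold change ± SE in HFoleic vs. Ref for each tested probe of the 10 genes, with the probe's mean log2 intensity in Ref mice in parentheses. Both Agpat2 probes are filled (adjusted p below 0.05), 1 of 3 Acsl1 probes is, and none of 6 Lpl or 4 Lpin1 probes is.

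The RefSeq promoter table (GRCm38.p6) held 5 of the 10 genes: Agpat2, Cd36, Acsl1, Slc27a1 and Lpin1. The 250 bases before the start are printed for Agpat2, which was higher in HFoleic mice, and for the first listed start of Slc27a1, which was lower. Capitals mark matches, on either strand, to 7 motifs searched: the TATA box (TATAAA), the CCAAT box (CCAAT), the GC box (GGGCGG), an E-box (CACGTG), a nuclear receptor half-site (AGGTCA), a motif of C/EBP type (TTGCNNAA) and a sterol element (TCACNCCAC). In Agpat2 the GC box matched at 2 places that share a base.
Agpat2, minus strand, chr2:26604418-26604667: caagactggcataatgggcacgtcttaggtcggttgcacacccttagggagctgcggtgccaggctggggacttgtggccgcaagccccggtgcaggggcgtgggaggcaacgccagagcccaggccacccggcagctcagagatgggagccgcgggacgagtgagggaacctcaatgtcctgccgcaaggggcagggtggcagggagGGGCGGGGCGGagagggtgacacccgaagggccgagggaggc
Slc27a1, plus strand, chr8:71568621-71568870: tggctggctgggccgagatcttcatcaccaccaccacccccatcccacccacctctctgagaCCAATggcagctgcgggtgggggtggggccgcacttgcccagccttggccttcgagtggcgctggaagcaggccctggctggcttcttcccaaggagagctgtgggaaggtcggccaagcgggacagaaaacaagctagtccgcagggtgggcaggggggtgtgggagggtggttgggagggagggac
The Agpat2 window held GGGCGG, present in 32.7% of all 32851 promoters, and none of the other motifs. The Slc27a1 window held CCAAT, present in 33.8%, and another of its 3 listed starts held CACGTG, present in 6.02%. The windows of Cd36 and Lpin1 held AGGTCA, present in 14% of promoters. A listed start of Acsl1, chr8:46490716-46490965, held CCAAT and the sterol element TCACNCCAC, present in 1.05% of promoters. The other Acsl1 start held only GGGCGG.

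Of 64 other genes of the pathway, 58 were tested. In HFoleic vs. Ref 14 were higher, 8 lower and 36 did not pass, with a median log2 fold change of 0.07 against -0.04 over all genes. The count of 22 in 58 stands beside the 15.2% of all genes that were higher and the 16.7% that were lower. At the lipoprotein step, the receptor Vldlr was higher by 0.77 ± 0.17 (adjusted p = 0.00258). Angptl4, a secreted inhibitor of Lpl, was higher by 0.21 (adjusted p = 0.00996), a value that became -0.07 with the processed signal and -0.01 with median centring. Among binding proteins Fabp5 rose by 1.26 ± 0.20 (adjusted p = 0.000426), with 14.30 to 15.77 in Ref and 15.97 to 16.53 in HFoleic mice. The caveolar coat protein Ptrf (Cavin1) and the transport protein Slc27a3 were higher by 0.35 and 0.41, and the acyl-CoA synthetase Acsl5 and the acyl-CoA binding protein Dbi by 0.45 and 0.22. The Dbi value was -0.06 with the processed signal, and Ptrf did not pass there (0.08, adjusted p = 0.566) or with median centring (0.14, adjusted p = 0.336).

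Among the genes around glycerol phosphate, mRNA levels changed in both directions. Gpd1, the cytosolic enzyme that makes glycerol 3-phosphate, was higher by 1.06 ± 0.24 (adjusted p = 0.00262). Gpd2, the mitochondrial glycerol 3-phosphate dehydrogenase, a different enzyme, was at -0.74 ± 0.18 (adjusted p = 0.00396). Pck1, the enzyme of glyceroneogenesis, was lower at -1.16 ± 0.23 (adjusted p = 0.0015), with 17.44 to 17.60 in Ref and 15.51 to 17.40 in HFoleic mice. Agpat6 (Gpat4), which acylates glycerol phosphate, was lower by a log2 fold change of -0.56 (adjusted p = 0.0108).

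The acyltransferases and phosphatases that follow were also divided. Agpat4 and Agpat5 were higher by 0.61 and 0.31 and Agpat3 was lower at -0.37 (adjusted p = 0.0445). Lpin3 was higher by 0.31 (adjusted p = 0.031) and the lipid phosphatase Ppap2a (Plpp1) lower at -0.79 ± 0.20 (adjusted p = 0.00633). With each array left out in turn, Agpat3 passed in 10 of 20 fits (adjusted p up to 0.117), Lpin3 in 14 of 20 (not without Ref 3, Ref 5, HFoleic 4, HFoleic 5, HFoleic 6 or HFoleic 8, adjusted p up to 0.0825) and Agpat4 in 15 of 20 (not without Ref 2, Ref 4, HFoleic 4, HFoleic 5 or HFoleic 6, adjusted p up to 0.0601). Mogat1 and Mogat2, which both acylate monoglyceride, gave -1.38 ± 0.25 (adjusted p = 0.000909) and 1.81 ± 0.39 (adjusted p = 0.00219). Mogat1 was 12.41 to 12.94 in Ref and 10.80 to 12.14 in HFoleic mice, without overlap. Mogat2 was 8.77 to 11.17 in Ref and 10.47 to 11.67 in HFoleic mice, and the highest Ref value, of Ref 7, made the groups overlap.

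**Figure D4:**
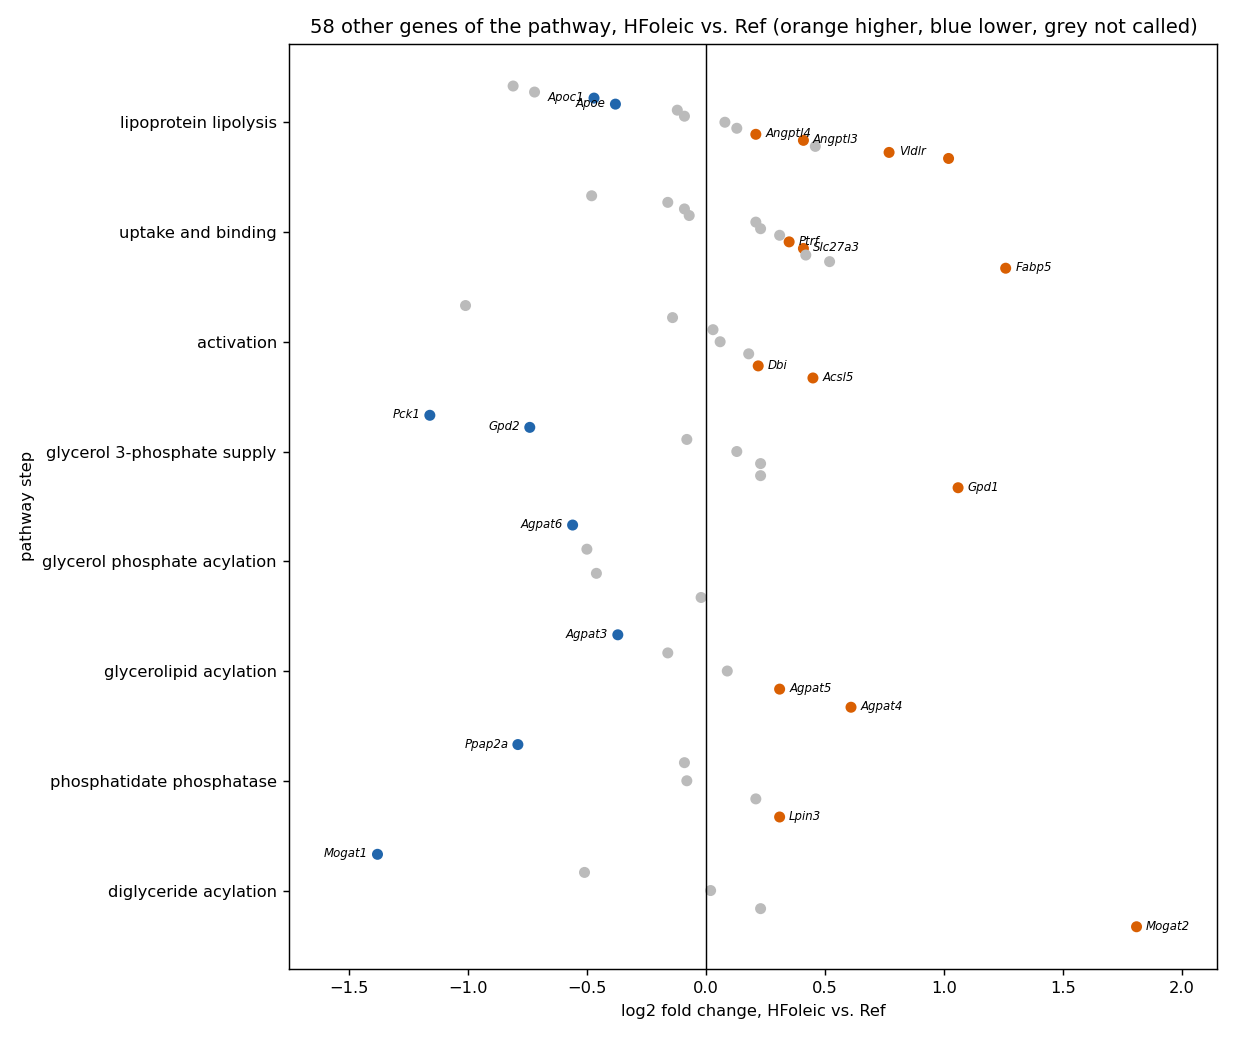
Log2 fold change in HFoleic vs. Ref of the 58 other pathway genes, 1 point per gene, by step. Orange points (14) are higher and blue points (8) lower at an adjusted p below 0.05, and grey points (36) did not pass. Names stand beside called genes, except 1. Both directions occur at most steps, with Mogat2 at 1.81 and Mogat1 at -1.38.

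In HFepa vs. Ref, 3 of the 58 genes passed, all higher, where 1.03% of all genes were: Fabp5 at 0.75 (adjusted p = 0.0385), Ptrf at 0.31 (adjusted p = 0.027) and Acsl5 at 0.27 (adjusted p = 0.0497). Acsl5 was at 0.08 (adjusted p = 0.454) with the mean of all its probes in place of the brightest. With each array left out in turn, Fabp5, Ptrf and Acsl5 passed in 12, 14 and 5 of 20 fits. These counts take an adjusted p that rounds to 0.05 as not passing: Ptrf without Ref 6, and Fabp5 and Acsl5 without HFoleic 8. None of the 3 passed without Ref 3, Ref 4, HFepa 1 or HFepa 6, only Fabp5 did without Ref 5 and only Ptrf without HFepa 5. Without Ref 6, Fabp5 and Acsl5 did not pass and Ptrf lay at the threshold. With all 20 mice, Mogat1 was at -0.81 in HFepa vs. Ref and did not pass (adjusted p = 0.07). All 8 HFepa mice (10.66 to 12.24) were nevertheless below all Ref mice (12.41 to 12.94) for Mogat1, as was the case for 0.671% of all genes. At an unadjusted p below 0.05 limma gave 12 of the 58 genes higher and 3 lower in HFepa vs. Ref. Without Ref 7, 6 of the 58 genes passed, and without HFepa 3, 5 did, in the same fits that called 4.73% and 7.08% of all genes. In HFepa vs. HFoleic none of the 58 passed, and limma gave 4 higher and 8 lower at an unadjusted p below 0.05. Of all genes, 10.8% were higher and 10% lower at that threshold, so these counts lie near the background.

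Macrophage markers differed between HFoleic and Ref mice. Of 16 such genes 13 were higher and 1 lower in HFoleic vs. Ref. Of all genes, 15.2% were higher and 16.7% lower there, the shares to set beside each marker list. None of the 16 passed in HFepa vs. Ref, where limma gave 7 higher and 2 lower at an unadjusted p below 0.05, or in HFepa vs. HFoleic, where it gave 12 lower. Their mean log2 level was 10.87 to 11.48 in Ref, 12.17 to 13.47 in HFoleic and 11.12 to 13.54 in HFepa mice. Among adipocyte markers 1 of 11 was higher in HFoleic vs. Ref (Lep) and 5 were lower: Lipe at -1.19, Adrb3 at -0.89, Retn at -0.65, Cfd at -0.50 and Pnpla2 at -0.42. The median log2 fold change of these 11 markers was -0.33, with a mean level of 15.53 to 15.82 in Ref, 15.12 to 15.73 in HFoleic and 15.19 to 15.75 in HFepa mice. Of 9 markers of fibroblasts and adipose progenitors, 4 were higher in HFoleic vs. Ref: Lum at 1.57, Col1a1 at 1.49, Col3a1 at 1.37 and Mfap5 at 0.56. The other 5 (Pdgfra, Dcn, Dpt, Pi16 and Ly6a) did not pass and ran from -0.32 for Ly6a to 0.15 for Pi16. Of 10 testis and 10 epididymis markers, 5 and 3 passed the filter on dim probes, and their mean levels overlapped between the groups. Single mice stood high, as HFoleic 5 for testis (8.54, group median 5.88) and HFepa 2 for epididymis (9.04, group median 7.02). Liver markers overlapped too, at 7.44 to 10.53 in Ref, 7.79 to 12.04 in HFoleic and 8.31 to 11.02 in HFepa mice. The highest was HFoleic 6. The part of these cells in the changes of the 10 genes was not tested.

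HFepa 1 and HFepa 6 had macrophage marker levels of 13.54 and 13.12, above the lowest HFoleic value, and the other HFepa mice reached at most 12.01. HFepa 1 also had the lowest HFepa value of Gpihbp1 (14.53), Slc27a1 (12.58), Lpin1 (12.33), Acsl1 (16.18) and Cd36 (16.08). With both mice left out, a choice made after these levels were seen and one that removes the HFepa mice nearest to HFoleic, 4 of the 10 genes passed in HFepa vs. HFoleic: Dgat2 at -0.96 (adjusted p = 0.0224), Agpat2 at -0.65 (adjusted p = 0.0319), Slc27a1 at 0.60 (adjusted p = 0.0257) and Gpihbp1 at 0.51 (adjusted p = 0.0139). Of all genes, 16% passed in that fit. These values describe the remaining 6 HFepa mice and not the group. Without HFepa 1 alone, Dgat2 and Gpihbp1 passed, at -0.88 (adjusted p = 0.0473) and 0.46 (adjusted p = 0.038), where 7.7% of all genes passed.

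**Figure D5:**
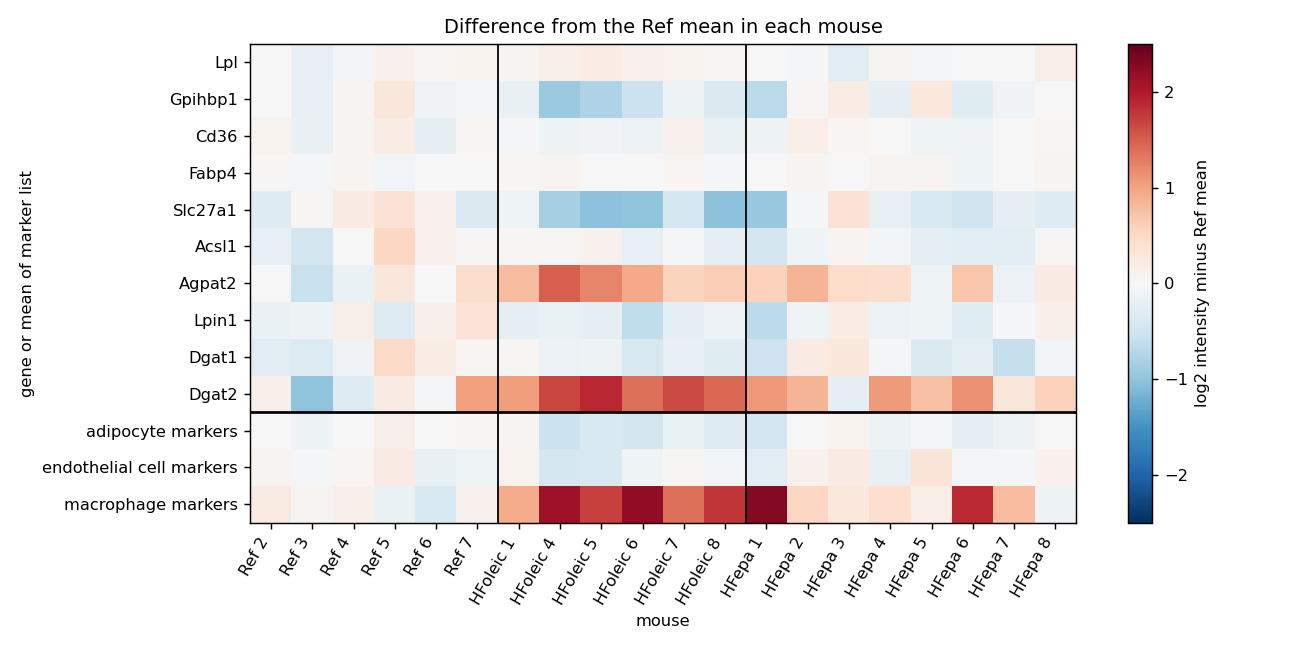
Log2 intensity minus the Ref mean of the 10 genes and of 3 marker lists in each of the 20 mice, from blue (lower) to red (higher). Dgat2 and Agpat2 are red in all HFoleic mice, and HFepa 1 and HFepa 6 share the high macrophage marker levels of the HFoleic mice.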

How the data were processed

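Total RNA of 20 mice was labelled with Cy3 and hybridised to 1-colour Agilent SurePrint G3 mouse arrays. The authors extracted each spot with Agilent Feature Extraction 10.10.1.1 and deposited its raw intensity. They also deposited a log2 table of quantile-normalized values, used here as an alternative. Between 66.06% and 71.88% of spots per array were well above background, and the number of arrays limits the precision.

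Control spots and spots marked as outliers were left out, which touched 0 spots of the 10 genes. Probes well above background on at least 6 arrays (39390) were kept. Log2 median intensities were quantile normalized and averaged by probe. The fit was 1 mean per group over all 20 arrays with limma 3.58.1 in R 4.3.3, with Benjamini-Hochberg adjustment over all probes at 0.05. A gene was represented by its brightest probe. The code was tested on simulated data. The labels do not say which mice shared a litter. The p-values therefore measure the spread between these mice, and not that between litters or between lineages. The members and lists were chosen with earlier results of these data known. Named pathway genes were, per step, the 3 with the smallest p among those called in HFoleic vs. Ref, and all called in the other comparisons. The values of 1 such gene and the sequence of 1 probe are not reported here.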

Additional observations from a re-analysis of the deposited data

Results flagged for a closer look

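In 87 groups of values (the 10 genes and 19 named pathway genes in 3 groups each), 5 mice stood apart by Dixon's test, which flags about 1 in 20 groups by chance. HFepa 3 had a log2 intensity of 17.50 for Lpl, where the other HFepa mice had 17.74 to 17.95. The same mouse had 12.06 for Vldlr, against 12.81 to 13.28. HFoleic 6 had 12.34 for Lpin1, against 12.75 to 12.83 in the other HFoleic mice. HFepa 5 had 10.71 for Agpat5, against 10.88 to 11.00. Ref 7 had 11.17 for Mogat2, against 8.77 to 9.38 in the other Ref mice, and it also had the highest Ref value of Dgat2.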

How the results depend on the processing

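Under 12 alternatives to the processing, Dgat2 and Agpat2 remained higher in HFoleic vs. Ref below an adjusted p of 0.05 (log2 fold changes of 1.31 to 1.60 and 0.86 to 1.02). Slc27a1 and Gpihbp1 were called in 11 of 12 (-0.82 to -0.64 and -0.53 to -0.46). The labels do not say whether equal replicate numbers mark paired mice. The paper states that HFoleic and HFepa mice were matched for body weight. By expression within groups, no number was the best match in HFoleic vs. Ref (0 of 4) or HFepa vs. Ref (0 of 6). In HFepa vs. HFoleic 1 of 6 was, number 6 (r = 0.56). So few numbers cannot exclude pairing. With the replicate block, 2 members (main value 4) and 13 pathway genes (main value 22) were called in HFoleic vs. Ref and 0 pathway genes (main value 3) in HFepa vs. Ref, with Slc27a1 at -0.64 (adjusted p = 0.0762), Gpihbp1 at -0.46 (adjusted p = 0.0942) and Ptrf at 0.02 in HFepa vs. HFoleic.

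In HFepa vs. Ref the 3 pathway genes became 0 with the processed signal scaled to the 75th percentile, with median centring, and with a fit to the compared groups only, and 1 without a filter on dim probes. In HFepa vs. HFoleic, slide as a block gave 2 members and 2 pathway genes (3.17% of all genes), array weights gave 3 and 9 (12%), and leaving out HFepa mice 1 and 6, chosen after seeing the data, gave 4 and 12 (16%), with 0 pathway genes in HFepa vs. Ref and Gpihbp1 at 0.02 there. The cause was not tested.

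With each array left out in turn, members called were 3 to 4 in HFoleic vs. Ref, 0 to 1 in HFepa vs. Ref and 0 to 2 in HFepa vs. HFoleic, and pathway genes 18 to 25, 0 to 6 and 0 to 4. Pathway genes in HFepa vs. HFoleic were 4 without HFepa 1 and 1 without HFoleic 1, and in HFepa vs. Ref 1 without Ref 5, Ref 6 or HFepa 5. The sign turned for Acsl1 in HFoleic vs. Ref (-0.14 to 0.05), Lpl in HFepa vs. Ref (-0.06 to 0.02) and Dgat1 in HFepa vs. HFoleic (-0.03 to 0.09).

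Other signs that turned were of values near 0 or at the bright end of the array. With the processed signal, HFoleic vs. Ref was -0.27 for Fabp4, -0.14 for Lpl, -0.06 for Dbi and -0.07 for Angptl4, HFepa vs. Ref -0.13 for Fabp4 and -0.02 for Dbi, and HFepa vs. HFoleic 0.13 for Ptrf, 0.04 for Dbi, 0.08 for Angptl4 and 0.02 for Lpl. With median centring they were -0.22 for Fabp4, -0.08 for Lpl and -0.01 for Angptl4, then -0.11 for Fabp4 and -0.01 for Dbi, then 0.10 for Ptrf, -0.01 for Dgat1 and 0.04 for Angptl4. The authors' log2 table gave Lpl 0.01 in HFepa vs. Ref and Ptrf 0.02 in HFepa vs. HFoleic, slide as a block Dgat1 -0.02 in HFepa vs. HFoleic, and array weights Lpl 0.01 in HFepa vs. Ref. The mean of all probes gave Lpl -0.01 in HFoleic vs. Ref, Fabp4 -0.01 in HFepa vs. Ref and Acsl1 0.05 in HFepa vs. HFoleic.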

Other observations

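Within groups, after each group's mean was subtracted, some of the 10 genes varied together over the 20 mice, which share tissue and normalization. Acsl1 and Dgat1 had a Pearson r of 0.86 (Spearman rho 0.87), which was 0.82 without the 2 mice farthest from the Acsl1 median. In each pair the 2 mice left out were chosen by the gene named first, and the second gene played no part in the choice. Gpihbp1 and Slc27a1, both lower in HFoleic mice, had r = 0.67 (rho 0.58, 0.60 without 2 mice), and Agpat2 and Dgat2, both higher, r = 0.60 (rho 0.69, 0.53 without 2 mice). Slc27a1 and Dgat2 had r = -0.56 (rho -0.45, -0.40 without 2 mice). Lpl and Dgat2 had r = 0.71, which fell to 0.39 without 2 mice. Slc27a1 and Dgat1, of which Dgat1 was not called, had r = 0.64 (rho 0.6, 0.49 without 2 mice). These are the largest values of r in size among 45 pairs and are given as a description.

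Among 25603 genes, those most like Dgat2 within groups included the glycolytic genes Tpi1 (r = 0.93) and Ldha (r = 0.90). Those most like Gpihbp1 were Cldn15 (0.95), the triglyceride lipase Pnpla2 (0.93) and Epas1 (0.93), and those most like Acsl1 were Emc6 (0.90), Cpt2 (0.89), which acts in mitochondrial fatty acid entry, and Slc25a33 (0.87). For Fabp4, among the brightest probes on the array, the closest were the olfactory receptor genes Olfr63 (0.80) and Olfr1311 (0.74).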
